A study of Mus musculus with 112 samples.

Results

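The B and plasma cell genes were followed in mammary tumours of mice, to ask whether their messenger RNA differed among inherited backgrounds or among single tumours. The members were 9 genes named by list: Cd79a, Cd79b, Ms4a1, Cd22 and Blk of B cells, and Ighm, Jchain, Pou2af1 and Mzb1 of antibody production and plasma cells. All 9 of 9 had at least 1 probe set whose only gene symbol on the platform was theirs, 21 probe sets of 45137 in all. Of these, 20 were on the first array type (MOE430A, array A, 22626 probe sets) and 1, for Mzb1, was on the second (MOE430B, array B, 22511 probe sets). Ighm had 11 of the 21, and 4 further probe sets that list a member beside other genes were not used.

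The 56 samples were spontaneous mammary tumours driven by a transgene that every mouse had, the middle T antigen of polyomavirus (PyMT), expressed from the promoter of mouse mammary tumour virus (MMTV), which is active mainly in mammary epithelium. The mice came from crosses with 18 AKXD sublines, recombinant inbred lines derived from AKR/J and DBA/2J. There were 3 tumours in 16 sublines and 4 in sublines 2 and 25, labelled as biological replicates, and no group without tumours served as a control. Age and treatment are not given in the labels used here. Each sample was whole tumour tissue, so fewer B or plasma cells and less RNA per such cell cannot be told apart.

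Left out were, on array A, subline 23 and tumour 3 of subline 25, and on array B tumour 3 of subline 11, tumour 2 of subline 23 and tumour 3 of subline 25, which kept 52 arrays A of 17 sublines and 53 arrays B of 18. The kept arrays had a median Pearson correlation of 0.970 to 0.991 with the other arrays on array A and 0.968 to 0.991 on array B. Those left out had 0.223 to 0.948 and 0.858 to 0.919. Luminal epithelial markers were bright, with mean log2 values of 13.12 for Epcam, 12.59 for Krt8 and 12.83 for Krt18, as the tissue label gives. On 17 probe sets of array A whose called differences formed 2 separate levels, tumours of subline 20 were divided between both levels on 15 probe sets and those of subline 2 on 14. Subline 27 was divided on 10 and subline 24 on 7. Results were also computed without these 4 sublines. The labels name no batch.

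A B cell recognises antigen through a membrane antibody that signals through the partners encoded by Cd79a and Cd79b, and with help it can become a plasma cell that secretes antibody. Ms4a1 encodes CD20, a surface protein of mature B cells. Cd22 encodes an inhibitory receptor that binds sialic acid, and Blk a Src family kinase. Ighm is the heavy chain of IgM, Jchain joins the subunits of secreted IgM and IgA, Pou2af1 is a B cell coactivator that binds with octamer factors on DNA, and Mzb1 is an endoplasmic reticulum protein that helps IgM assembly. The mammary gland is a known home of IgA plasma cells around lactation, and their antibody is carried across the epithelium into milk.

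Promoter windows of 250 bases upstream of the RefSeq start (GRCm38.p6) were at hand for 4 of the 9 members, Cd79a, Cd22, Jchain and Pou2af1. The first 3 are printed because Cd79a and Cd22 were high in largely the same tumours and Jchain was high in a wider set. Each window ends at the base before the start and is written 5′ to 3′ along the gene, with matches to the searched motifs in capitals. Cd79a lies on the plus strand at chr7:24897247-24897496, Cd22 on the minus strand at chr7:30879029-30879278 and Jchain on the minus strand at chr5:88527898-88528147.
Cd79a: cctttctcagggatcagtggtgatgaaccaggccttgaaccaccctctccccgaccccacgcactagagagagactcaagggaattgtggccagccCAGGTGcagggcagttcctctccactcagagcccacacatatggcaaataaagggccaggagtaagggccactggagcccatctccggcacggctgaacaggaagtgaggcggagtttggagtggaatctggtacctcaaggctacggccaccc
Cd22: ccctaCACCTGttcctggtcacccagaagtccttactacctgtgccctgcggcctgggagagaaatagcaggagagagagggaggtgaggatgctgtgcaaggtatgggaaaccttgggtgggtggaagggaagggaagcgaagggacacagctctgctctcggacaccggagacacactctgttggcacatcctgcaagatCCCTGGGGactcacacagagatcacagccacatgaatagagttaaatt
Jchain: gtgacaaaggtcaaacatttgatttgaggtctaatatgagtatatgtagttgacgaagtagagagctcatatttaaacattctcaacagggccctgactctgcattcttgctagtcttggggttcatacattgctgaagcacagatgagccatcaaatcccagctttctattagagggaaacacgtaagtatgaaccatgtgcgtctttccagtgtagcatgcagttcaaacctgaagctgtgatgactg

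The motifs searched on both strands were the octamer ATGCAAAT, the palindrome CCCNNGGG that early B cell factor binds, and the E boxes CAGCTG and CAGGTG. None of these overlaps another in the printed windows. The Cd79a window held CAGGTG at -154 from the start. The Cd22 window held the same E box on the other strand, read as CACCTG, at -245, and the palindrome as CCCTGGGG at -48. The Jchain and Pou2af1 windows held no match. Of 32851 promoter windows of the same length, 17.2% held CAGGTG, 13.0% held CAGCTG, 11.8% held CCCNNGGG and 1.601% held the octamer. A match is a string of letters and no measured binding site.

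No member was called as different among the sublines against the spread between tumours of a subline. Of the 20 probe sets on array A, 0 were called by limma's moderated F test at an adjusted p under 0.05, where 1.74% of all probe sets of that array were called. The adjusted p ran from 0.617 to 0.986, and 0 of the 20 had an unadjusted p under 0.05, against 15.2% of all probe sets (11.0% on array B). Their median F was 0.77, and 16 of 20 lay under 1, where subline means differ by less than the tumours within sublines would give. Over all probe sets of array A the median F was 1.15, with 38.0% under 1. Mzb1 on array B had an F of 1.26 and an adjusted p of 0.725, where 0.671% of that array's probe sets were called.

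Single sublines gave the same picture. Each subline was set against the mean of the others, and 0 of 340 comparisons of array A were called (0.459% over all probe sets), with 8 at an unadjusted p under 0.05, or 2.35% against 7.56% overall. The lowest adjusted p was 0.109, for the Ighm probe set 1427870_x_at in subline 21, which lay at -0.22 ± 0.08 (SE) on the log2 scale against the other sublines. Jchain in subline 20 had the largest difference of the 8, at 1.31 ± 0.52 (SE; limma unadjusted p = 0.0160, not called after adjustment). Mzb1 on array B was not called in any of 18 sublines (0.276% overall), and 1 of the 18 had an unadjusted p under 0.05 (6.64% overall), subline 28 at 0.17 ± 0.07 (SE; limma unadjusted p = 0.0269, adjusted p = 0.795). Leaving out each kept array in turn also gave 0 calls, with adjusted p down to 0.355 among sublines on array A and 0.439 on array B. Leaving out sublines 2, 20, 24 and 27 gave 0 calls.

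The B cell receptor partners were high in single tumours of different sublines. Cd79a ran from a log2 value of 6.21 in tumour 2 of subline 18, through a median of 6.50, to 8.66 in tumour 3 of subline 22, a 5.48-fold range. After that tumour came tumour 1 of subline 24 at 8.30, tumour 2 of subline 10 at 7.75, tumour 3 of subline 20 at 7.62 and tumour 1 of subline 18 at 7.60. These 5 tumours, from 5 sublines, were the ones at least 1 log2 unit above the median. In sublines 22, 24, 10 and 20 the other tumours lay near the median. Subline 22 had 6.52, 6.60 and 8.66, subline 24 had 8.30, 6.53 and 6.35, and subline 10 had 6.50, 7.75 and 6.45. Subline 20 had 6.40, 6.50 and 7.62. Subline 18 had 7.60, 6.21 and 7.30, so its tumour 2 was the lowest of all and its tumour 3 lay 0.80 above the median.

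Mean Cd79a was highest in subline 22, at 7.26 ± 1.22 (SD, n = 3), and lowest in subline 21, at 6.32 ± 0.04 (SD, n = 3). Between them the order rose from sublines 25, 9, 7, 14, 16, 2, 3, 11, 13, 27 and 28 to 20, 10, 18 and 24. In this order 0 of the 16 steps between neighbours exceeded the within-subline SD of 0.54, and the tumours of every neighbouring pair overlapped. The same held for each other member's probe sets on array A, and for Mzb1 on array B, with 0 of 17 steps. The share of all probe sets with such steps was not computed, so these counts do not set the members apart from other genes.

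Cd79b, the other receptor partner, gave nearly the same tumours. Its lowest value was 5.81 in tumour 1 of subline 20, its median 6.11 and its highest 8.22 in tumour 1 of subline 24, a 5.32-fold range. Tumour 3 of subline 22 followed at 7.81 and tumour 2 of subline 10 at 7.37, and these 3 were the tumours at least 1 above the median. Tumours 3 and 1 of subline 18 had 6.94 and 6.89, tumour 3 of subline 20 had 6.88, tumour 3 of subline 27 had 6.81 and tumour 3 of subline 13 had 6.51. Those 8 tumours were also the 8 highest for Cd79a and for Ms4a1. Subline means ran from 6.05 ± 0.16 (SD, n = 3) in subline 25 to 6.77 ± 1.26 (SD, n = 3) in subline 24.

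Ms4a1 on its brighter probe set ran from 6.23 in tumour 1 of subline 2, through 6.71, to 8.16 in tumour 3 of subline 22, a 3.82-fold range. Tumour 1 of subline 24 had 7.91 and tumour 3 of subline 20 had 7.61. Only tumour 3 of subline 22 and tumour 1 of subline 24 lay at least 1 above the median. The other Ms4a1 probe set averaged 4.09 and lay at or below the brightest of the absent Trpn controls, spots for a bacterial transcript, in 52 of 52 tumours. It still followed the brighter one (r = 0.784, rho = 0.575 over 52 tumours).

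Cd22 and Blk spanned narrow ranges. Cd22 on its brighter probe set ran from 7.83 in tumour 3 of subline 7, through 8.14, to 8.90 in tumour 1 of subline 24, a 2.09-fold range, and no tumour lay 1 above the median. Tumour 3 of subline 20 had 8.67 and tumour 2 of subline 10 had 8.53. The dimmer Cd22 probe set ran from 4.92 to 5.88, also highest in tumour 1 of subline 24. Blk ran from 7.29 in tumour 1 of subline 27 to 7.996 in tumour 2 of subline 16, a 1.63-fold range.

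**Figure D1:**
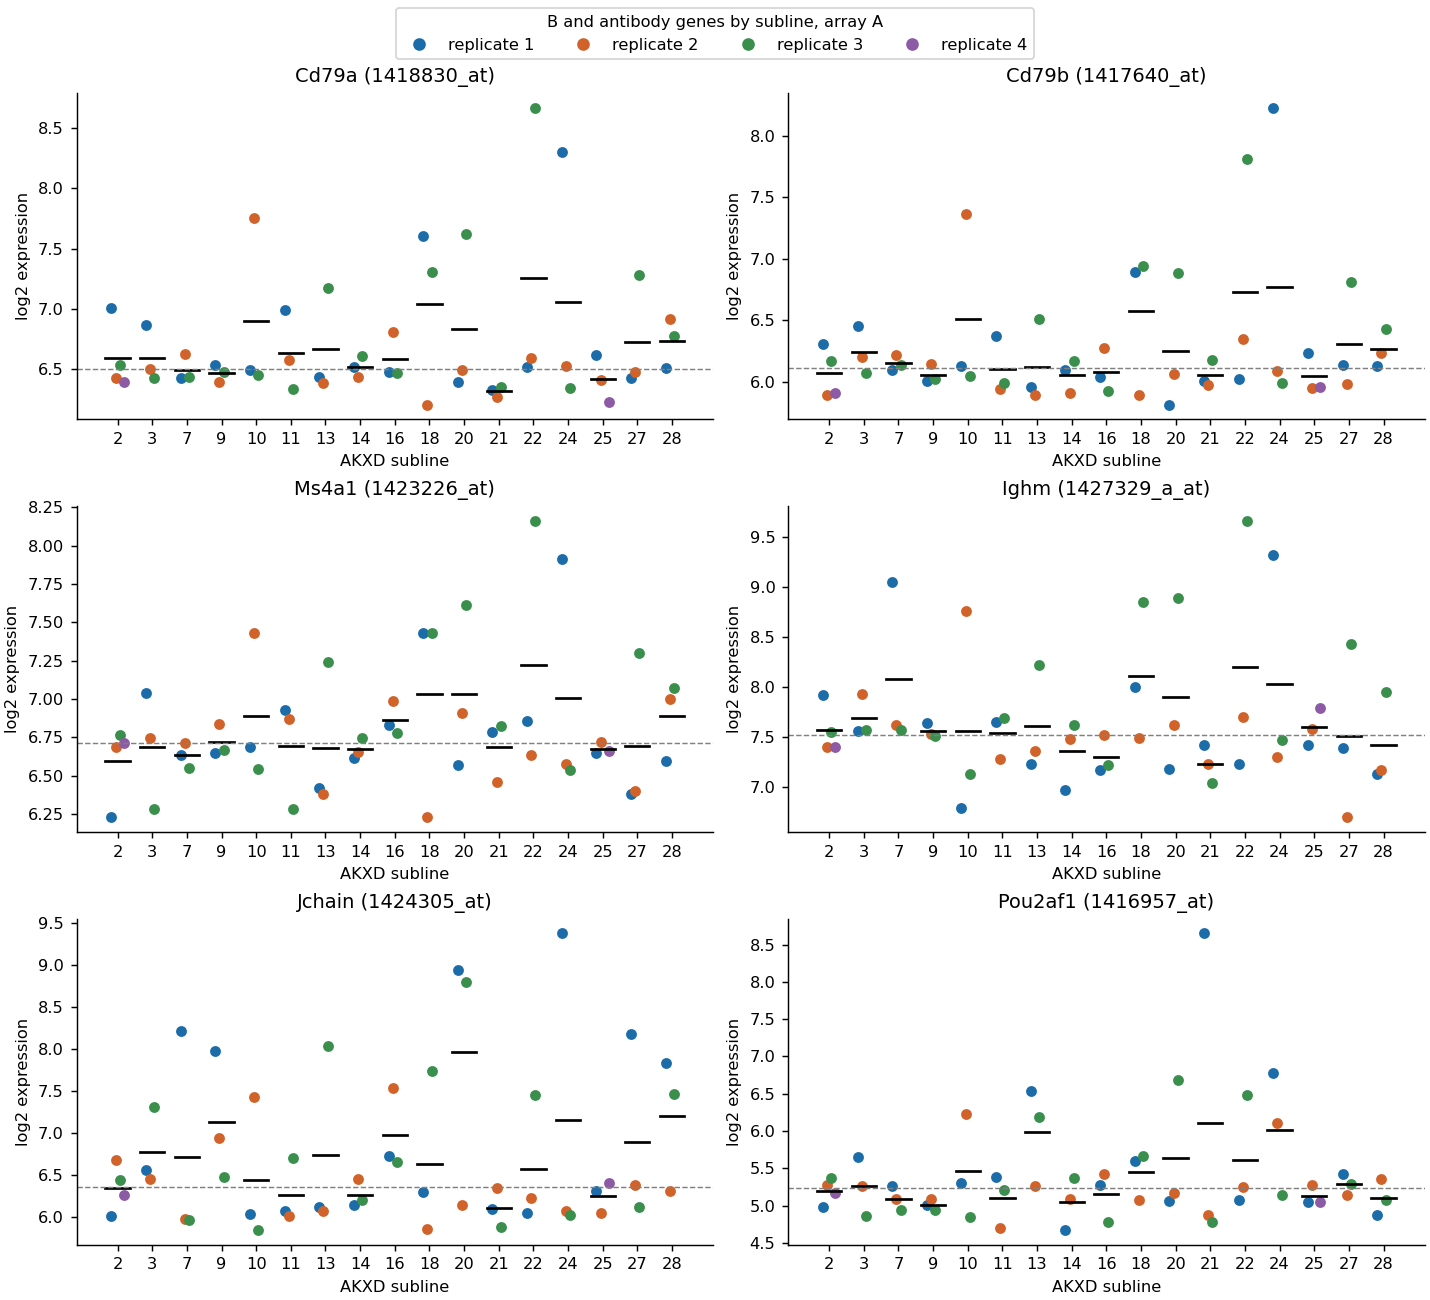
Log2 expression (vertical axis) of Cd79a, Cd79b, Ms4a1, Ighm, Jchain and Pou2af1 in 52 tumours by AKXD subline (horizontal axis), with a point per tumour coloured by its replicate number, a black bar at each subline mean and a dashed line at the median over tumours. Most points lie near the dashed line and single tumours stand above it, such as 8.66 for Cd79a in subline 22 and 8.65 for Pou2af1 in subline 21, while no subline has all its tumours well above the others.

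The IgM heavy chain gave different answers by probe set. The probe set 1427329_a_at ran from 6.70 in tumour 2 of subline 27, through 7.52, to 9.66 in tumour 3 of subline 22, a 7.81-fold range. Tumour 1 of subline 24 had 9.32, tumour 1 of subline 7 had 9.05, tumour 3 of subline 20 had 8.90, tumour 3 of subline 18 had 8.85 and tumour 2 of subline 10 had 8.76. These 6 tumours, each of another subline, were the ones at least 1 above the median. The tumour of subline 7 stood out here and not in Cd79b, where it had 6.10. Subline 7 had 9.05, 7.63 and 7.58 on this probe set, so its other tumours lay near the median.

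A second Ighm probe set, 1427351_s_at, followed the first (r = 0.931, rho = 0.838) and ran from 8.16 to 9.95. A further 3, 1425247_a_at, 1425324_x_at and 1427756_x_at, were highest in tumour 1 of subline 24, at 7.97, 6.75 and 6.62, with ranges of 2.03-fold, 2.31-fold and 1.84-fold. The remaining 6 spanned 1.42-fold to 1.84-fold. Among these was the brightest, 1427870_x_at, at a mean of 9.68 with an SD of 0.13 over 52 tumours, and 1426196_at lay at or below the absent controls in 46 of 52. By the naming of this array maker, probe sets ending in _s_at or _x_at can also bind transcripts of other genes, and immunoglobulin sequences share long stretches, so which transcript each Ighm probe set reads is uncertain.

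Jchain was high in more tumours than any B cell member. It ran from 5.85 in tumour 3 of subline 10, through a median of 6.36, to 9.38 in tumour 1 of subline 24, an 11.6-fold range. Next came tumours 1 and 3 of subline 20 at 8.94 and 8.80, tumour 1 of subline 7 at 8.22, tumour 1 of subline 27 at 8.18 and tumour 3 of subline 13 at 8.04. In all 13 tumours of 11 sublines lay at least 1 above the median. Subline 20 had the highest mean, 7.96 ± 1.57 (SD, n = 3), from 8.94, 6.15 and 8.80, and subline 21 the lowest, 6.11 ± 0.23 (SD, n = 3). The lowest of subline 20 lay under the median of all tumours, and the within-subline SD was 0.92.

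The tumours high in Jchain held most of those high in Cd79a. The reverse could not occur, since 5 tumours cannot hold most of 13. Of the 5 tumours at least 1 above the median in Cd79a, 4 (80.0%) were so in Jchain, which is 30.8% of its 13. All 6 of those high in Ighm 1427329_a_at were among the 13, or 46.2% of them. Tumour 1 of subline 20 had Jchain at 8.94 and the lowest Cd79b of all tumours, 5.81. Tumour 1 of subline 27 had Jchain at 8.18 with Cd79b at 6.14, and tumour 3 of subline 27 had Jchain at 6.12 with Cd79b at 6.81.

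Pou2af1 had the widest range, through 1 tumour. It ran from 4.68 in tumour 1 of subline 14, through 5.24, to 8.65 in tumour 1 of subline 21, a 15.7-fold range, and tumours 2 and 3 of that subline had 4.88 and 4.79. The next tumours were tumour 1 of subline 24 at 6.78, tumour 3 of subline 20 at 6.69, tumour 1 of subline 13 at 6.54, tumour 3 of subline 22 at 6.49 and tumour 2 of subline 10 at 6.23. Its values lay at or below the absent controls in 13 of 52 tumours. Tumour 1 of subline 21 had no raised value in the other members, with 6.33 for Cd79a, 6.01 for Cd79b, 6.09 for Jchain and 7.42 for Ighm 1427329_a_at. That array stood apart in other genes too: 578 probe sets (2.55%) lay at least 1 above their median there, the most of any tumour, and its 10 luminal epithelial genes averaged 0.91 below their medians (-0.91), with 1 of 10 above. Whether these go with Pou2af1 was not tested.

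Mzb1 on array B ran from 7.27 in tumour 1 of subline 16, through 7.52, to 7.95 in tumour 3 of subline 22, a 1.605-fold range. Its highest subline mean was 7.70 ± 0.06 (SD, n = 3) in subline 28 and its lowest 7.41 ± 0.05 (SD, n = 3) in subline 14. No tumour lay 1 above the median.

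**Figure D2:**
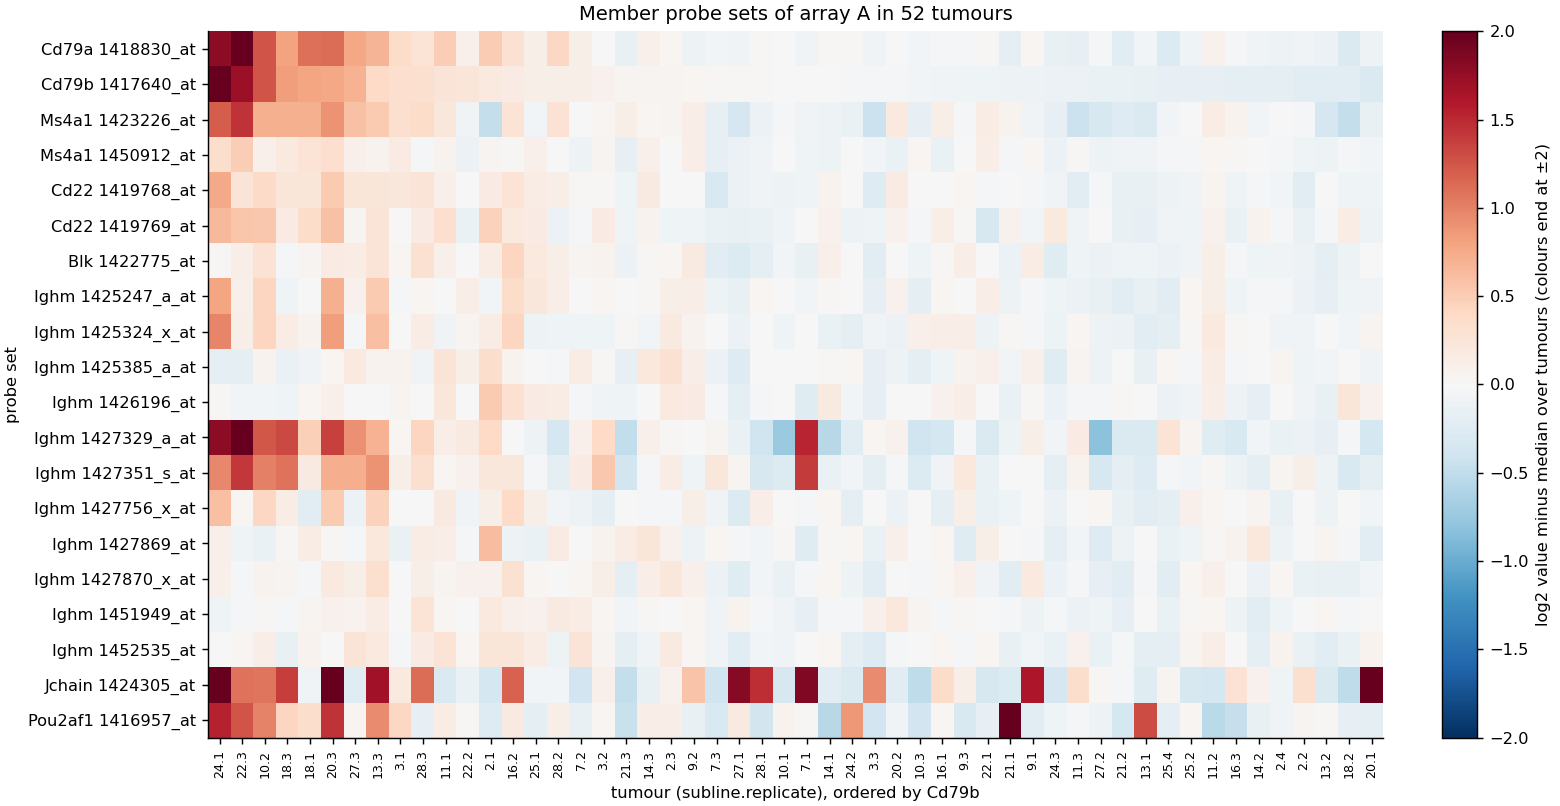
Log2 value minus the median over 52 tumours for the 20 member probe sets of array A (rows), with tumours (columns, subline.replicate) ordered by Cd79b and colours ending at 2 above or below. The 8 leftmost tumours are raised in Cd79a, Cd79b and Ms4a1 together, and Pou2af1 is darkest in tumour 1 of subline 21. Jchain is raised by at least 1 in 13 tumours. These include the 8 leftmost except tumour 1 of subline 18 and tumour 3 of subline 27. The rest lie farther right, as far as tumour 1 of subline 20, the lowest in Cd79b.

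The members were then compared with one another over the tumours, 51 where Mzb1 was one of them and 52 otherwise. Permutation tests with 100000 two-sided resamples were adjusted by Benjamini-Hochberg over the 50 relations computed, 36 between members by their brightest probe set and 14 with other probe sets. Of the 36, 30 passed an adjusted p under 0.05 by Pearson's r and 25 by Spearman's rho. Every r of the 36 was above 0. Cd79a and Cd79b had the highest, r = 0.956 and rho = 0.817 (both permutation p = 1e-05, the smallest these resamples can give; adjusted p = 3.13e-05 and 3.33e-05). Without tumour 1 of subline 24 and tumour 3 of subline 22, the 2 farthest from the median, r was 0.935.

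Ms4a1 and Cd22 followed the receptor partners. With Cd79a, Ms4a1 had r = 0.888 and rho = 0.656, and r = 0.806 without those 2 tumours. Cd22 had r = 0.808 and rho = 0.822 with Cd79a, and r = 0.827 without them. Ighm 1427329_a_at had r = 0.812 and rho = 0.585 with Cd79b, and r = 0.703 without them. Each of these had a permutation p of 1e-05 for r. Taken as deviations from the subline means, r was 0.965 for Cd79a and Cd79b, 0.894 for Cd79a and Ms4a1, and 0.837 for Cd79a and Cd22. Without sublines 2, 20, 24 and 27, over 39 tumours, these pairs had r = 0.961, 0.914 and 0.718.

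Jchain followed the B cell members more loosely. With Cd79a it had r = 0.443 (permutation p = 0.00222, adjusted p = 0.00347) and rho = 0.233 (permutation p = 0.0947, adjusted p = 0.108). With Cd79b it had r = 0.467 (permutation p = 0.00152, adjusted p = 0.00281) and rho = 0.250 (permutation p = 0.0740, adjusted p = 0.0860). Without the 2 farthest tumours these r fell to 0.295 and 0.272, so the relation by r rested in part on them. Without tumour 1 of subline 24 alone r was 0.298 with Cd79b, and for Jchain with Cd22 it was 0.272 in place of 0.430. With Mzb1, the other gene of antibody secretion, Jchain had r = 0.423 and rho = 0.468 (adjusted p = 0.00347 and 0.00122), and r = 0.426 without the 2 farthest. With Ighm 1427329_a_at it had r = 0.541 and rho = 0.346 (adjusted p = 0.000273 and 0.0168). The differences between these correlations were not tested.

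Blk followed both an Ighm probe set and its fellow B cell genes. Its highest r was with the bright Ighm probe set 1427870_x_at, r = 0.792 and rho = 0.822, and r = 0.765 without its 2 farthest tumours, but r = -0.45 when all 56 arrays were used. With Ighm 1452535_at it had r = 0.715 and rho = 0.720, and with Cd79b r = 0.386 and rho = 0.567. With Cd22 it had r = 0.644 and rho = 0.773, with Ms4a1 r = 0.501 and rho = 0.606, and with Cd79a r = 0.472 and rho = 0.726, each past an adjusted p of 0.05. Blk and 1427870_x_at each spanned under 1 log2 unit, from 7.29 to 7.996 and from 9.44 to 10.00. On array A 55.2% and 79.8% of all probe sets had a range at least as wide. Tumour 2 of subline 16 and tumour 3 of subline 28, highest in Blk, had the highest medians over all probe sets, 7.890 each. Tumour 1 of subline 27, lowest in both, had a median of 7.833. Other tumours went the other way. Tumour 1 of subline 2 had the lowest array median, 7.825, with Blk at 7.71, above the Blk median of 7.56. Tumour 3 of subline 7 had an array median of 7.883 with Blk at 7.35. Whether this r goes with the level of the whole array was not tested. Pou2af1 had r = 0.466 and rho = 0.456 with Cd79b (adjusted p = 0.00726 and 0.00144), and r = 0.305 without the 2 tumours farthest in Cd79b. Without tumour 1 of subline 21, where Pou2af1 alone was high, r was 0.704 with Cd79b and 0.719 in place of 0.456 with Cd79a. For Pou2af1 with Mzb1 r was 0.495 in place of 0.304, and with Jchain 0.451 in place of 0.262. With Blk, Pou2af1 had r = 0.101 (permutation p = 0.470), or 0.253 without that tumour.

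**Figure D3:**
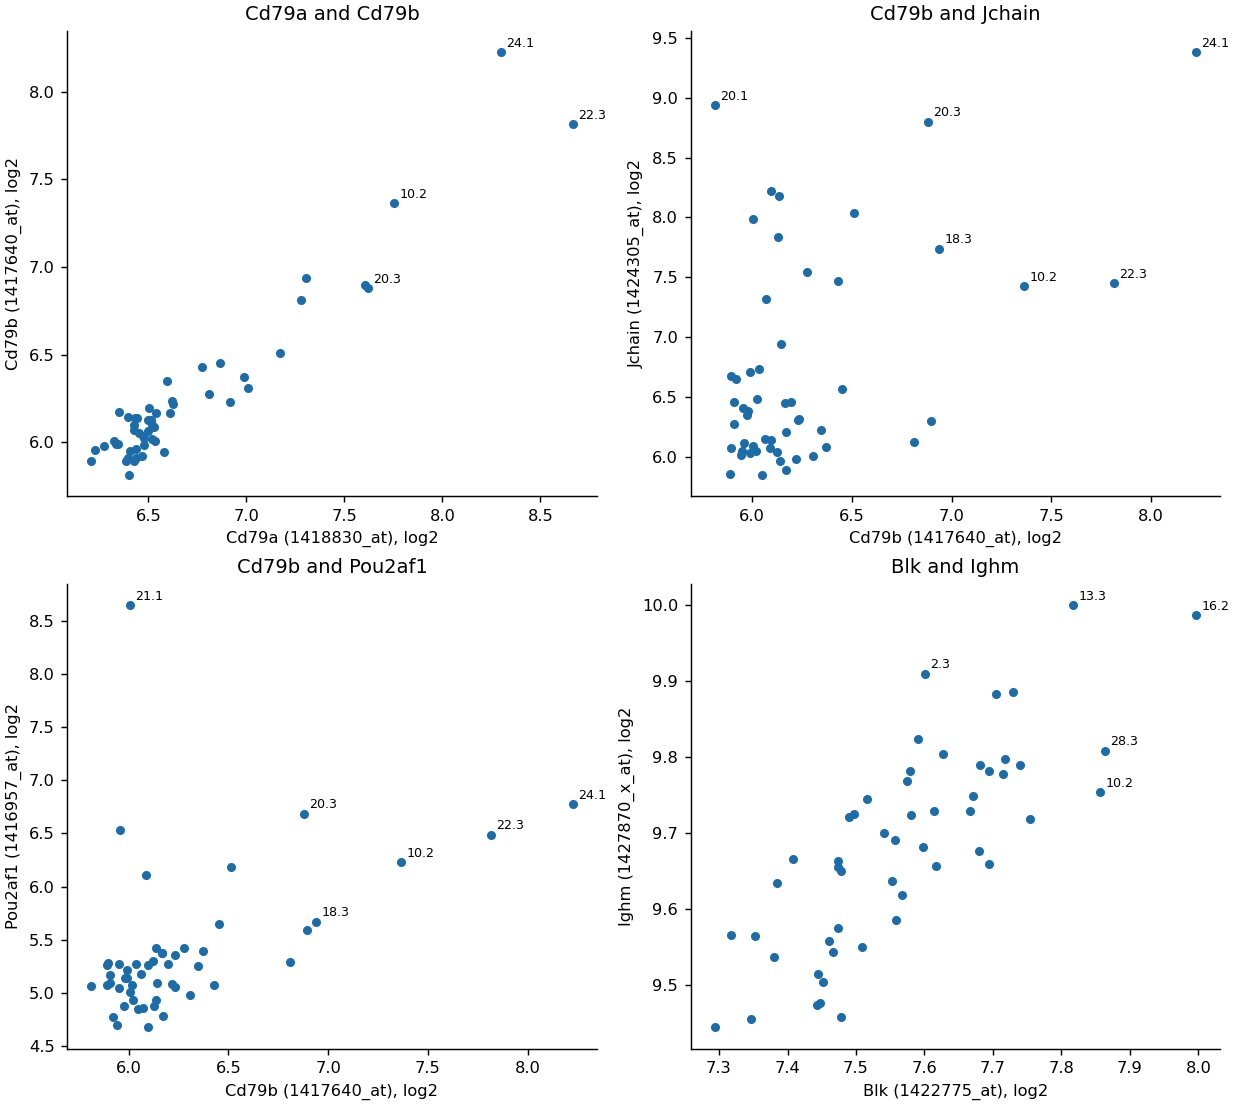
Log2 values of pairs of member probe sets over 52 tumours, a point per tumour, with some tumours named as subline.replicate: Cd79a and Cd79b, Cd79b and Jchain, Cd79b and Pou2af1, and Blk and Ighm 1427870_x_at. Cd79a and Cd79b rise along 1 line (r = 0.956), while Jchain is high both at low Cd79b, as in tumour 1 of subline 20, and at high Cd79b, as in tumour 1 of subline 24, and tumour 1 of subline 21 stands alone in Pou2af1.

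**Figure D4:**
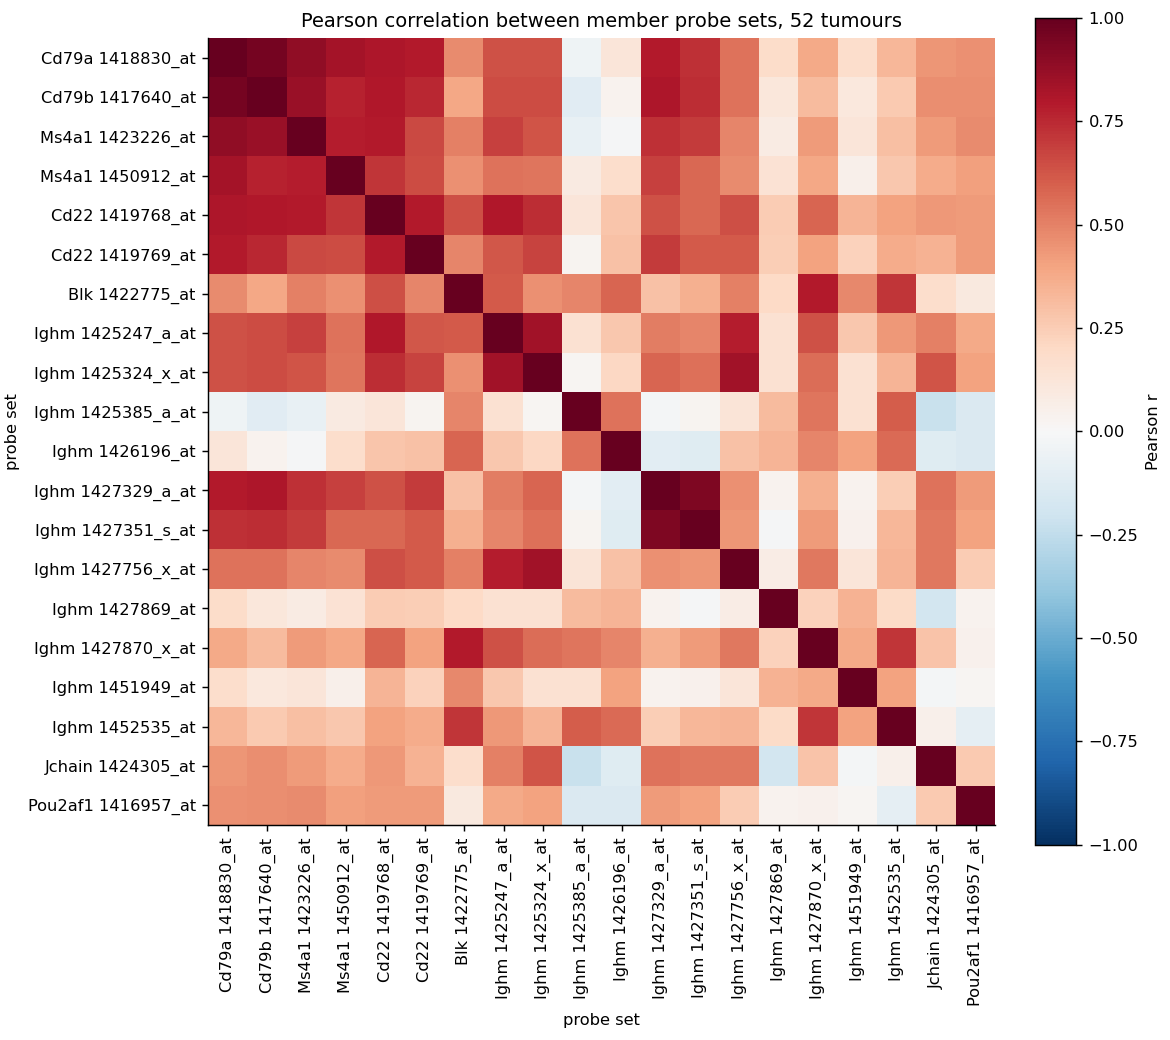
Pearson r between each pair of the 20 member probe sets of array A over 52 tumours, with rows and columns in the same order. Cd79a, Cd79b, Ms4a1, Cd22 and the Ighm probe sets 1427329_a_at and 1427351_s_at form a block of high r, Jchain is paler against them, and Blk is darkest against Ighm 1427870_x_at and 1452535_at.

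The genes most like Cd79b by Pearson r over the 52 tumours were Ighv14-2, an antibody heavy chain variable gene (r = 0.945, rho = 0.648), Cd209b, a lectin receptor of lymphoid tissue macrophages (r = 0.923, rho = 0.597), and Marco, a macrophage scavenger receptor (r = 0.921, rho = 0.645). After them came Trbv1, a T cell receptor variable gene (r = 0.905), Ltb, which encodes lymphotoxin beta (r = 0.891), and Cr2, the complement receptor CD21 of B cells and follicular dendritic cells (r = 0.843). Without the 2 farthest tumours they had r = 0.905, 0.842, 0.820, 0.807, 0.791 and 0.814. Marco was 9.23 in tumour 3 of subline 22, 9.12 in tumour 1 of subline 24 and 8.49 in tumour 2 of subline 10, against a median of 7.11. Cd209b was 9.43 in tumour 1 of subline 24, 9.26 in tumour 3 of subline 22 and 9.19 in tumour 2 of subline 10, against a median of 7.29. In all 28 other probe sets of array A had an r of at least 0.8 with Cd79b.

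The genes most like Jchain were mostly other antibody genes. Igkv8-30, a kappa light chain variable gene, had r = 0.939 and rho = 0.814, Igha, the IgA heavy chain, had r = 0.903 and rho = 0.789, and Igkv9-120 had r = 0.835 and rho = 0.689. Igk had r = 0.722, Iglv1 of the lambda light chain r = 0.696, and Il15, a cytokine gene, r = 0.587. Without the 2 farthest tumours they had r = 0.921, 0.868, 0.761, 0.656, 0.550 and 0.536. Each gene stands here by its probe set with the highest r, and other probe sets of a gene differed. Igkv9-120 was read by 1460423_x_at, and its brighter probe set 1452536_s_at had r = 0.184 with Jchain. Igk was read by 1425738_at, and its brighter probe set 1452557_a_at had r = 0.205. Igha was read by 1429381_x_at, and its brighter probe set 1421653_a_at had r = 0.882. Igha 1429381_x_at was highest at 10.53 in tumour 1 of subline 20, followed by 9.91 in tumour 1 of subline 24 and 9.71 in tumour 3 of subline 20, against a median of 7.52. In the 8 tumours highest in Cd79b it ran from 7.36 to 9.91. Only 8 other probe sets of array A had an r of at least 0.8 with Jchain. None of these 12 genes was called among sublines (limma adjusted p from 0.594 to 0.989).

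None of the wider B and plasma cell lists had a gene called among sublines. Of 18 B lineage genes on array A beside the members, 0 were called and 0 had an unadjusted p under 0.05, and their median F was 0.89 against 1.15 over all probe sets. The 4 with the smallest p were Bach2, a repressor of plasma cell fate, Cd37, Vpreb3 and Tnfrsf13c, the receptor for the survival factor BAFF. Their limma adjusted p were 0.376, 0.523, 0.610 and 0.616. The mean of the 18 genes had r = 0.856 with Cd79b, but single genes ran from r = -0.27 for Bcl11a to 0.891 for Ltb. Cr2 and Spib had r = 0.843 and 0.801, while Pax5, Cd72, Pou2f2, Ciita and Vpreb3 had 0.059, 0.028, 0.028, 0.077 and 0.134. Of 14 genes that carry the receptor's signal 0 were called and 1 had an unadjusted p under 0.05 (median F 0.89), and the first were Pik3ap1 (adjusted p = 0.197), the linker Blnk (0.441), Dapp1 (0.522) and Nfatc1 (0.546). Blnk averaged 10.12 and did not follow Cd79b in level, since its highest value, 10.92, was in tumour 3 of subline 10, where Cd79b was 6.05.

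Of 14 plasma cell genes beside the members 0 were called and 0 had an unadjusted p under 0.05, while the median F of 1.20 lay above that of all probe sets, with Sel1l3, Derl3, Eaf2 and Fkbp11 first at limma adjusted p of 0.380, 0.412, 0.444 and 0.459. Xbp1, the factor of the secretory programme, averaged 13.79 and Sdc1, the plasma cell surface marker CD138, averaged 9.83. Both are also made by epithelial cells. Prdm1 averaged 7.55 and Irf4 7.01. With Jchain, Prdm1, Irf4 and Sdc1 had r = 0.101, -0.036 and 0.146. The highest r of the list was 0.402, for Sel1l3, while the list mean had r = 0.527. Of 18 immunoglobulin genes 0 were called and 1 had an unadjusted p under 0.05 (median F 0.99). Igkv14-111, Igkv4-72, Igha and Igkv1-135 were first, at limma adjusted p of 0.311, 0.421, 0.486 and 0.667. Of the 18, 5 had a mean no higher than the brightest absent control. Their r with Jchain differed widely over the 18 genes, from -0.32 for Igkv1-135 to 0.939 for Igkv8-30.

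Of 17 genes of homing, survival and antibody transport 0 were called and 2 had an unadjusted p under 0.05 (median F 1.04). Tnfsf13b, which encodes BAFF, Ccl20, Pigr and Madcam1 came first, at limma adjusted p of 0.281, 0.319, 0.404 and 0.546. Pigr, which carries IgA and IgM through epithelium, ran from 9.70 to 11.99, with its highest value in tumour 2 of subline 18, where Jchain was 5.86 and Cd79b 5.89. Tnfsf13b ran from 6.53 to 7.38.

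Glycam1 and some other markers of lymph node, and in part those of fat, were higher beside the B cell members in single tumours. The list of lymph node stroma and homing had 7 of 10 genes on array A. Its mean stood 1.03 above the medians in tumour 3 of subline 22, 0.95 in tumour 3 of subline 27, 0.90 in tumour 3 of subline 13, 0.86 in tumour 2 of subline 10 and 0.84 in tumour 3 of subline 18. It stood 0.75 above in tumour 1 of subline 24, 0.56 in tumour 1 of subline 18 and 0.55 in tumour 3 of subline 20. Between 4 and 7 of the 7 genes lay above their median in these 8 tumours. Over all 52 tumours the list mean ran from -0.30 to 1.03, and 2 of its 7 genes had a mean at the level of the absent controls.

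Much of these means came from Glycam1, a ligand of the homing receptor on high endothelial venules that milk-producing mammary epithelium also makes. Its median was 6.79, and in the same 8 tumours it ran from 8.97 to 12.17, highest in tumour 3 of subline 27. Without Glycam1 the mean of the other 6 genes was 0.43 in tumour 2 of subline 10, 0.40 in tumour 3 of subline 22, 0.37 in tumour 3 of subline 18 and 0.28 in tumour 3 of subline 20. It was 0.26 in tumour 3 of subline 13, 0.24 in tumour 1 of subline 24, 0.21 in tumour 3 of subline 27 and 0.16 in tumour 1 of subline 18, in a range over all tumours from -0.21 to 0.43. Madcam1, Chst4 and Prox1 were at -0.22, -0.11 and -0.04 of their medians in tumour 1 of subline 24. Glycam1 was 6.30 in tumour 1 of subline 7, high in Jchain with Cd79b near its median. It was 6.86 in tumour 1 of subline 20, high in Jchain with the lowest Cd79b of all tumours. Lyve1, of lymphatic vessels, was 7.77, 7.41 and 7.39 in tumour 3 of subline 18, tumour 3 of subline 22 and tumour 2 of subline 10, against a median of 5.88. Cxcl13, the chemokine that draws B cells, was 9.11 in tumour 3 of subline 22 against a median of 8.67.

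T cell genes lay nearer their medians, though their list mean followed Cd79b over the 52 tumours (r = 0.755). The lymph node and adipocyte list means had r = 0.702 and 0.580. Of 13 T cell genes on array A, 12, 13, 12 and 13 lay above their medians in tumour 2 of subline 10, tumour 3 of subline 20, tumour 1 of subline 24 and tumour 3 of subline 22, with list means 0.28, 0.25, 0.26 and 0.28 above. In the other tumours of the 8 the T cell list mean was 0.21 in tumour 3 of subline 27, 0.16 in tumour 3 of subline 13, 0.10 in tumour 1 of subline 18 and 0.07 in tumour 3 of subline 18. Over all tumours that mean ran from -0.18 to 0.28, and none of the 13 averaged at the level of the absent controls. The adipocyte list, 6 of 8 genes, stood 1.62, 1.47, 1.35 and 1.25 above in tumour 2 of subline 10, tumour 3 of subline 22, tumour 3 of subline 18 and tumour 1 of subline 24. In the other tumours of the 8 it stood 1.02 above in tumour 3 of subline 27, 0.76 in tumour 3 of subline 20, 0.45 in tumour 1 of subline 18 and 0.10 in tumour 3 of subline 13. It also stood 1.24 above in tumour 1 of subline 7, where Cd79b was near its median, and at -0.03 in tumour 1 of subline 20. Over all 52 tumours it ran from -1.19 to 1.62. Among the tumours named here, the adipocyte genes stood 0.10 to 1.62 above in the 8 high in B cell genes. They were also high in tumour 1 of subline 7, which was not. Tumours beyond those looked at were not compared singly. The part of lymph node, fat or T cells in the high B cell genes was not tested.

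Macrophage genes stood 0.72 above their medians in tumour 1 of subline 7, the tumour with Ighm 1427329_a_at at 9.05, and 0.36 in tumour 1 of subline 24. Fcgr1, an antibody receptor of macrophages, was highest in tumour 1 of subline 7 at 8.16. Plasmacytoid dendritic cell genes, which share Spib with B cells, stood 0.23 above in tumour 1 of subline 24 and 0.68 in tumour 3 of subline 27. The latter came mostly from Klk1, which was 3.96 above its median there. Without Klk1 the other 5 genes averaged 0.26 above in tumour 1 of subline 24 and 0.02 in tumour 3 of subline 27. The mean of the luminal epithelial list lay between -0.10 and 0.18 in the 8 tumours highest in Cd79b. Single genes of it differed more, with 1 of 10 at least 1 above its median in tumour 1 of subline 18 and in tumour 1 of subline 24. In that list 1 of 10 was called among sublines, Muc1 (limma adjusted p = 0.00315), and 0 were called among T cell (13), lymph node (7), plasmacytoid (6), macrophage (10) and adipocyte (6) genes. Tumour 1 of subline 24 and tumour 3 of subline 22 also had 239 and 196 probe sets at least 1 above their median, 1.06% and 0.866% of array A.

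**Figure D5:**
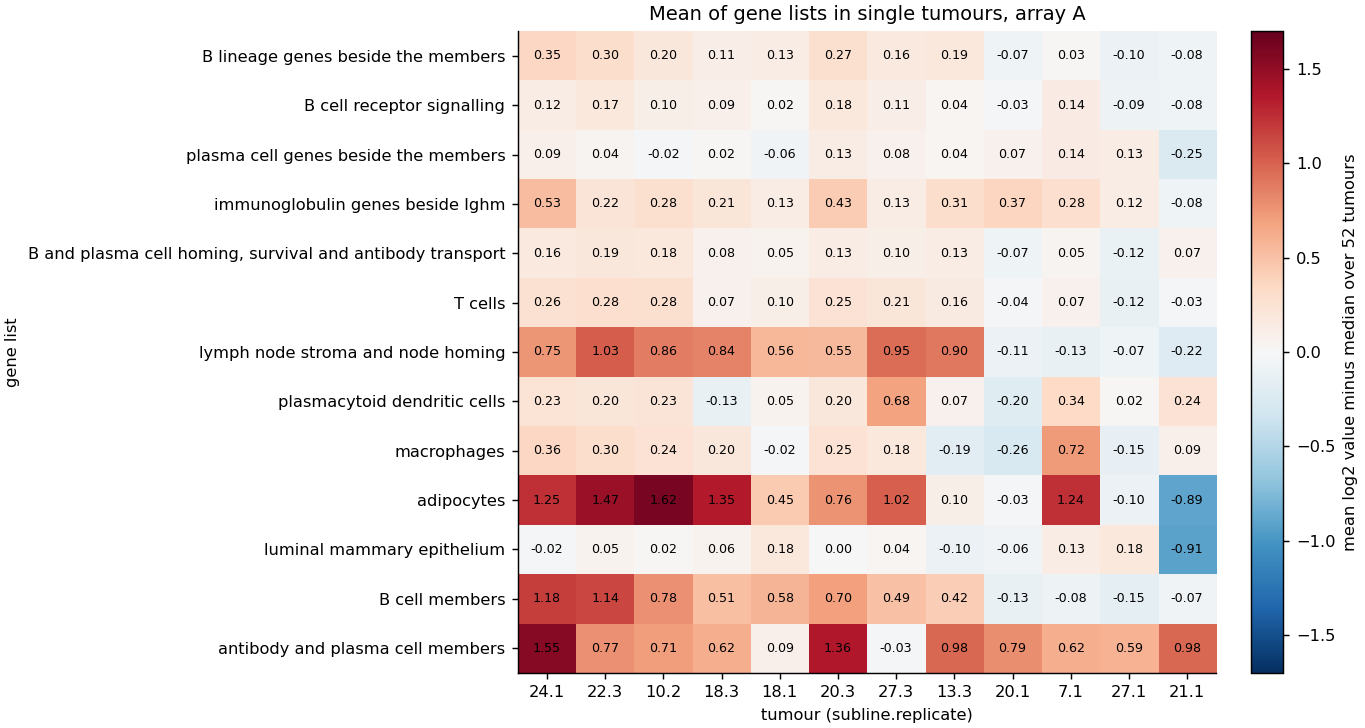
Mean log2 value minus the median over 52 tumours for each gene list (rows) in 12 tumours (columns, subline.replicate), printed in each cell. The first 8 columns, the tumours highest in Cd79b, are raised in the lymph node list, from 0.55 to 1.03, or from 0.16 to 0.43 without Glycam1, and the luminal epithelial list lies near 0 except at -0.91 in tumour 1 of subline 21.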

How the data were processed

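Each tumour was measured on arrays A and B. The authors deposited log2 expression values made with RMA, per the submitters' processing notes. The software version, the probe definition and the build are, in the sources used here, not given. With no counts behind the values, precision is limited by how many arrays there are. Control probe sets (64 on each array) were set aside. Symbols came from the platform annotation: on array A 20380 probe sets had 1, 691 several and 1555 none, and on array B 14661, 245 and 7605. Symbols of other genes were updated through RefSeq (GRCm38.p6).

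The members and lists were chosen with earlier results of these data known. One mean per subline was fitted to all probe sets of an array with limma 3.58.1 (R 4.3.3; lmFit, eBayes), with the moderated F test and each subline against the unweighted mean of the others. P-values were adjusted by Benjamini-Hochberg over the array, within each comparison, and called under 0.05. The scripts were tested on simulated data. The limma p-values measure the spread between tumours of a subline. Permutation p-values of the correlations came from shuffling values over all tumours, whatever their subline. Correlations used Python 3.11.15 and numpy 2.4.6. Named were all member probe sets, up to 4 genes of each list with the smallest p, and the 6 genes with the highest r with Cd79b and with Jchain. List genes, and members in correlations unless a probe set is named, stand by their brightest probe set, and the genes most like a member by the probe set with the highest r. Other list genes were named after their values were seen. A called probe set had 2 levels where the sides of its widest gap, each of at least 5 tumours, were separated by at least 5 pooled SDs.

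The alternatives were all 56 arrays, array quality weights, median centring, quantile normalization, a filter on probe sets with a mean under 6, a robust prior with a trend, the Gapdh 3′ minus 5′ signal as a covariate, a block for the replicate number, and fits without sublines 2, 20, 24 and 27 or without each replicate number. Fits without single arrays, and correlations without those sublines or without single tumours, and list means without the gene of widest range, were chosen after seeing the data.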

Additional observations from a re-analysis of the deposited data

Results flagged for a closer look

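Subline 2 was the only one with 4 kept tumours, and its 4 tumours were tested on each of the 21 member probe sets. A tumour far from the other 3 appeared on 2 of the 21, where chance flags about 1 in 20, and the probe sets share the same tumours. Both times it was tumour 1. Its Ms4a1 value on the brighter probe set, 6.23, was the lowest of the subline and of all tumours, with the next at 6.69. Its Cd22 value on the dimmer probe set, 5.70, was the highest of the subline, with the next at 5.20. The brighter Cd22 probe set had 8.30 there, and Cd79a had 7.01, against medians of 8.14 and 6.50.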

How the results depend on the processing

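The count of 0 called members among sublines held under all alternatives on array B and, on array A, under all but array quality weights. That setting called 2 Ighm probe sets, 1425385_a_at (limma adjusted p = 0.0171) and 1427869_at (0.0409), where 40.8% of all probe sets were called. In single sublines it called 4 on array A, Pou2af1 higher in subline 13 and 3 Ighm probe sets lower in subline 27, where 4.08% of all subline comparisons were called. With all 56 arrays 14 were called, all in subline 23, whose arrays had been left out and where 69.3% of all probe sets were called. Leaving out replicate numbers 1 to 4 gave 0 to 0 calls. The replicate number as a replicate block gave 0 calls, with adjusted p from 0.625 on array A and 0.754 on array B. Same-numbered tumours of different sublines did not deviate together on average (mean r -0.003 and 0.004). Single pairs of array A had r between -0.59 and 0.48. A mean over all pairs cannot show whether the number is shared by some tumours or genes only, and this was not tested. With all 56 arrays the r of Ighm 1427870_x_at turned from 0.379 to -0.015 with Cd79a, 0.313 to -0.18 with Cd79b, 0.427 to -0.21 with Ms4a1, 0.792 to -0.45 with Blk and 0.282 to -0.049 with Jchain. Without tumour 1 of subline 24 or of subline 21 some r with Jchain or Pou2af1 moved by over 1.5 times, as given above. By rho, 5 pairs that passed by r did not, all with Jchain. The cause of these changes was not tested.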
